A study of Mus musculus with 18 samples.

Results

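The 10 genes described here encode subunits of the Polycomb repressive complexes: Ezh1, Ezh2, Eed, Suz12, Jarid2 and Mtf2 of Polycomb repressive complex 2 (PRC2), and Ring1, Rnf2, Pcgf6 and Cbx7 of Polycomb repressive complex 1 (PRC1). They were taken by gene symbol from the 51467 genes of the count table, and all 10 were found. RNA from polysome gradients was counted in mouse embryonic stem cells (ESCs) that were wild type (WT) or knockout for Dgcr8 (Dgcr8 KO), both cultured with LIF and 2i and treated for 2 min with 100 ug/ml cycloheximide. Dgcr8 encodes a subunit of the Microprocessor, without which canonical miRNAs are not made. Lysates were separated on gradients of 10 to 50% sucrose, and each of the 6 gradients, 3 per genotype, gave a monosome, a low polysome (from 2 ribosomes) and a high polysome (from 4 ribosomes) fraction. This makes 18 libraries in 6 groups of 3. The study's methods name the V6.5 line for polysome profiling. Its resource list gives the Dgcr8 KO cells as 1 line made earlier in the same laboratory and names no parent line for it. Whether the Dgcr8 KO cells were 1 clone is not given in the sources used here. An effect of the genotype therefore cannot be told apart from a difference between the lines.

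PRC2 places methyl groups on lysine 27 of histone H3, and PRC1 ubiquitylates histone H2A and compacts chromatin. Together they keep developmental regulators silent in ESCs, where both complexes are abundant. Ezh2 is the main methyltransferase of dividing cells, and Ezh1 is a weaker paralog that is usually described in differentiated tissue.

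Libraries held 1151649 to 4984833 counted reads, of which 2063 to 15123 fell on the 10 members, and monosome libraries were the shallowest. Levels are given as CPM, counts relative to library size, scaled by the trimmed mean of M values (TMM), so each is a share of its own fraction and not an amount per cell. Because QuantSeq counts bulk cells, fewer cells of a type and less RNA per cell cannot be told apart. Dgcr8, the targeted gene, was lower in Dgcr8 KO by 0.56 (monosomes), 0.45 (low polysomes) and 1.01 (high polysomes) on the log2 scale and was still read in every KO library. All 7 naive ESC markers were read in every group, with a summed level of 2124 to 3569 CPM over the libraries. In high polysomes that sum was 3414 to 3569 CPM in WT and 2828 to 2962 CPM in KO, with no overlap. In the other fractions the genotypes overlapped. At an adjusted p under 0.05 in the test given below, 3 of the 7 were lower and 0 higher in KO high polysomes. In monosomes 1 was lower and 2 higher, and in low polysomes 2 were lower and 3 higher. Primitive endoderm markers summed to 12.4 to 36 CPM in WT and 1.96 to 13.8 CPM in Dgcr8 KO, with at most 4 of 5 above 3 reads in any group, and Gata6 was at 0 in the KO monosomes. Primed epiblast markers summed to 99.1 to 146 CPM in WT and 76.6 to 122 CPM in KO, with 3 of 4 above 3 reads in each group and Fgf5 at 0 in WT low polysomes and all KO fractions. Fibroblast markers summed to 7.01 to 12.3 CPM in WT and 1.92 to 20.9 CPM in KO, with 1 to 4 of 5 above 3 reads, and Postn was at 0 in 4 of the 6 groups. The highest sum came from KO low polysomes of gradient 1, with 28 reads of Col3a1, 16 of Col1a1 and 13 of Col1a2, against 0 or 1 in the other KO low polysome libraries. The part of these markers in the results was not tested.

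The miRNAs below are shown because they are the ones that Dgcr8 KO cells cannot make and whose sites were sought in the members; the seed, bases 2 to 8, is in capitals. The mature sequences are from RefSeq on GRCm38.p6. The first 3 share 1 seed and belong to the ESC-enriched cell cycle (ESCC) group, miR-17 carries the same core shifted by 1 base, and let-7, miR-26 and miR-101 are textbook regulators of Ezh2 or of differentiation. miRNA levels were not measured here.
mmu-miR-291a-3p (chr7:3218968-3218989, plus strand): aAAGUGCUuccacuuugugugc
mmu-miR-294-3p (chr7:3220691-3220712, plus strand): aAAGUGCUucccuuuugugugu
mmu-miR-295-3p (chr7:3220815-3220837, plus strand): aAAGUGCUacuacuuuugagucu
mmu-miR-17-5p (chr14:115043684-115043706, plus strand): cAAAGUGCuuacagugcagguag
mmu-let-7a-5p (chr13:48538239-48538260, minus strand): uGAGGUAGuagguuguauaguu
mmu-miR-26a-5p (chr9:119031811-119031832, plus strand): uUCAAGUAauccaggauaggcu
mmu-miR-101a-3p (chr4:101346957-101346977, minus strand): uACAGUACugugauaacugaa

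Matches of 7 bases to these seeds were counted on the sense strand of each member's representative 3′ UTR in GENCODE M21 (GRCm38). The ESCC match AGCACTT was found in 1 of the 10 members, Ezh1, and in 16.2% of 11671 protein-coding genes tested. Among the 1639 genes whose 3′ UTR was within 20% of the 1823 nt of Ezh1, 19.9% held it. The miR-17 match GCACTTT, which overlaps the ESCC match by 6 bases, was in Ezh1 and Rnf2 (13.9% of genes). The let-7 match CTACCTC was in Ezh2 (9.75% of genes), the miR-26 match TACTTGA in Ezh2, Suz12 and Jarid2 (10.7%), and the miR-101 match GTACTGT in Ezh2 and Eed (10.7%). Among the 983 genes whose 3′ UTR was within 20% of the 402 nt of Ezh2, these matches were in 3.87% (let-7), 3.26% (miR-26) and 2.95% (miR-101). The ESCC and the first miR-17 match of Ezh1 are 1 site. The sites of the paralogs Ezh1 and Ezh2, whose values move in opposite directions in the results, are printed with their flanks, the match in capitals.
Ezh1, ESCC site (chr11:101192003-101192025, minus strand): gagaacaaAGCACTTtaactctc
Ezh1, second miR-17 site (chr11:101191156-101191178, minus strand): aatttcttGCACTTTaaagtcct
Ezh2, let-7 site (chr6:47530520-47530540, minus strand): catctaCTACCTCttcccctt
Ezh2, miR-26 site (chr6:47530279-47530301, minus strand): ataaagaaTACTTGAacttgttg
Ezh2, first miR-101 site (chr6:47530468-47530490, minus strand): aaccttgaGTACTGTgggcaatt
Ezh2, second miR-101 site (chr6:47530413-47530435, minus strand): tttgcaaaGTACTGTaacagtaa
A match is a description of letters, and none of these sites was tested for activity.

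KO was compared with WT within each fraction, and the change of translation level, the log2 ratio of high polysome to monosome, was compared between the genotypes. The 4 comparisons share libraries. A gene passed the test at a limma adjusted p under 0.05 over the 12851 genes tested, all 10 members among them, and was called when its change was also over 2-fold, that is, over 1 on the log2 scale. In high polysomes 2 members passed higher in KO (Ezh1, Jarid2) and 6 lower (Ezh2, Eed, Suz12, Mtf2, Pcgf6, Cbx7), against 29.1% and 31.6% of all genes. Of these, Ezh1, Jarid2 and Cbx7 were called, against 15.1% of genes called higher and 17.9% called lower. The median member changed by -0.54 on the log2 scale, and the median of all genes by -0.08. P-values measure the spread between these samples, since nothing states that the 3 gradients of a genotype came from separate cultures.

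**Figure D1:**
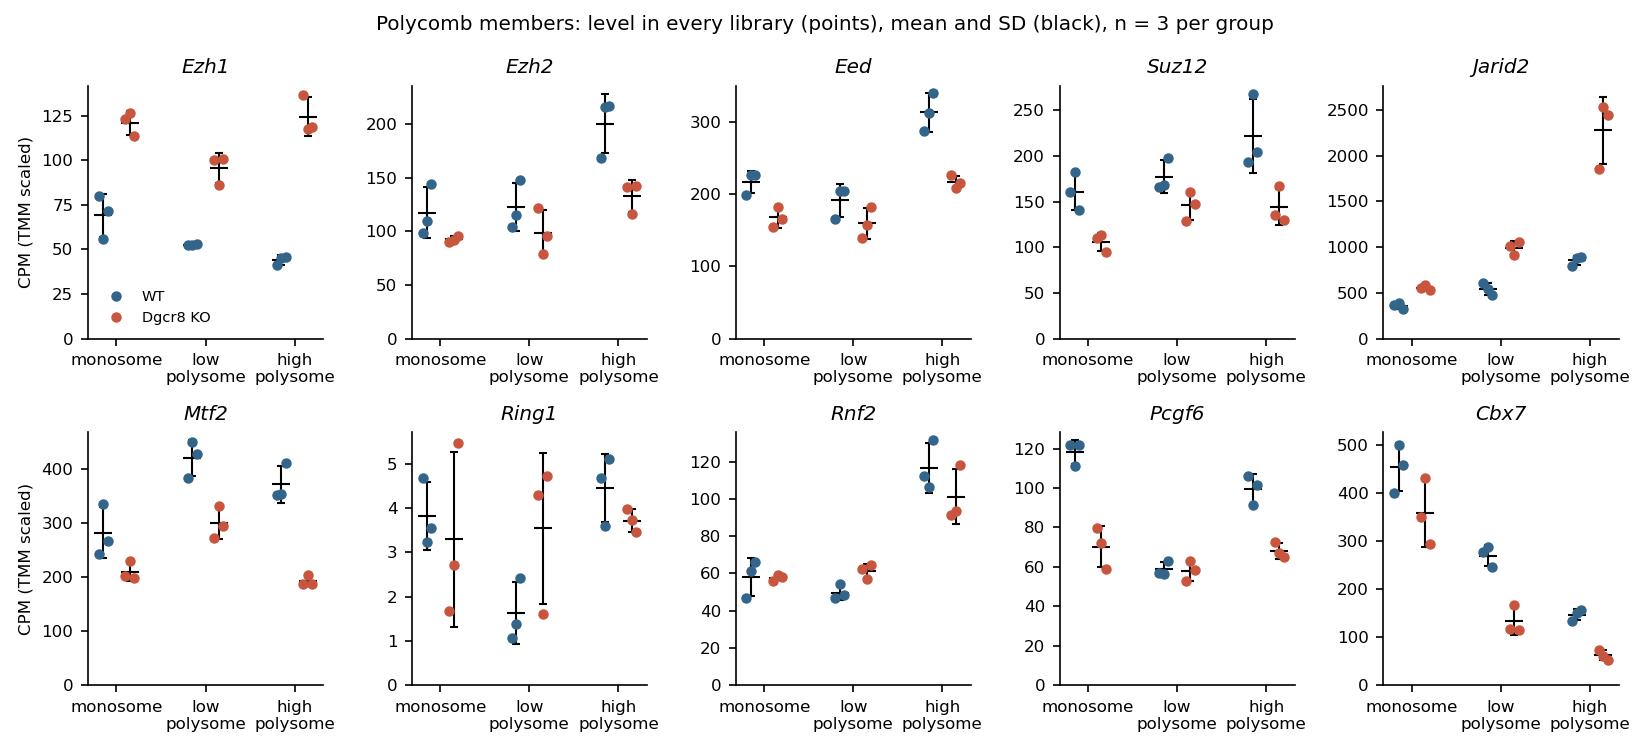
Level of each of the 10 members (TMM-scaled CPM, linear axis from 0) in the monosome, low polysome and high polysome libraries of WT (blue) and Dgcr8 KO (red); points are libraries, black marks the mean and SD of 3. Ezh1 and Jarid2 sit higher in KO in all 3 fractions, while Cbx7 falls from monosomes to high polysomes in both genotypes and is lower in KO polysomes.

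Ezh1 (chr11:101191115-101226463, minus strand) rose in every fraction of Dgcr8 KO. In high polysomes it was at 41.0, 45.4 and 45.9 CPM in WT and at 137, 117 and 119 CPM in KO. In low polysomes the WT libraries held 52.5, 52.2 and 53.3 CPM and the KO libraries 100.2, 86.2 and 101 CPM. In monosomes the values were 79.7, 56.1 and 71.6 CPM in WT and 123, 127 and 114 CPM in KO. No WT library reached the lowest KO library of the same fraction. The log2 change was 0.82 ± 0.15 (SE; adjusted p = 1.88e-05) in monosomes, 0.86 ± 0.13 (adjusted p = 6.24e-07) in low polysomes and 1.49 ± 0.14 (adjusted p = 2.89e-12) in high polysomes. WT levels went down with ribosome number, with a translation level of -0.63 ± 0.16 on the log2 scale (adjusted p = 0.000816), whereas KO gave 0.04 ± 0.12 (adjusted p = 0.812). Without WT gradient 1 the WT value was -0.46 and its adjusted p 0.0566.

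Ezh2 (chr6:47530139-47595341, minus strand) went the other way. Its high polysome level was 169, 216 and 217 CPM in WT and 142, 116 and 142 CPM in KO, with no overlap. There it fell by 0.59 ± 0.14 (SE) on the log2 scale (adjusted p = 0.000528). Monosome levels of 98.4, 109.7 and 144 CPM in WT and 90.1, 92.0 and 96.0 CPM in KO did not overlap either, but the change of -0.31 did not pass (adjusted p = 0.147). In low polysomes the WT libraries, at 104 to 148 CPM, overlapped the KO libraries, at 78.8 to 121 CPM, and the change was -0.32 (adjusted p = 0.0663), which passed under 5 other settings (adjusted p 0.00852 to 0.0442). Ezh2 was richer in high polysomes than in monosomes in both genotypes, by 0.79 ± 0.16 in WT (adjusted p = 4.52e-05) and 0.51 ± 0.15 in KO (adjusted p = 0.00322). With total counts as the scaling the KO value was 0.27 and did not pass.

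The ratio of Ezh2 to Ezh1 reads within a library needs no scaling between libraries. In high polysomes the log2 ratio was 2.04, 2.24 and 2.24 in WT and 0.05, -0.02 and 0.26 in KO. Thus WT high polysomes carried several Ezh2 reads per Ezh1 read, and KO high polysomes about as many of the 1 as of the other. The mean went from 2.17 ± 0.12 (SD, n = 3) to 0.10 ± 0.14, a difference of -2.08. Low polysomes gave 0.99, 1.14 and 1.47 in WT against 0.28, -0.13 and -0.07 in KO (difference -1.18), and monosomes 0.30, 0.96 and 1.0 against -0.45, -0.46 and -0.24 (difference -1.14). The genotypes did not overlap in any fraction. Each difference had an exact permutation p of 0.1 (two-sided), the smallest that 3 against 3 libraries allow, and 0.2 after adjustment over 6 comparisons.

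**Figure D2:**
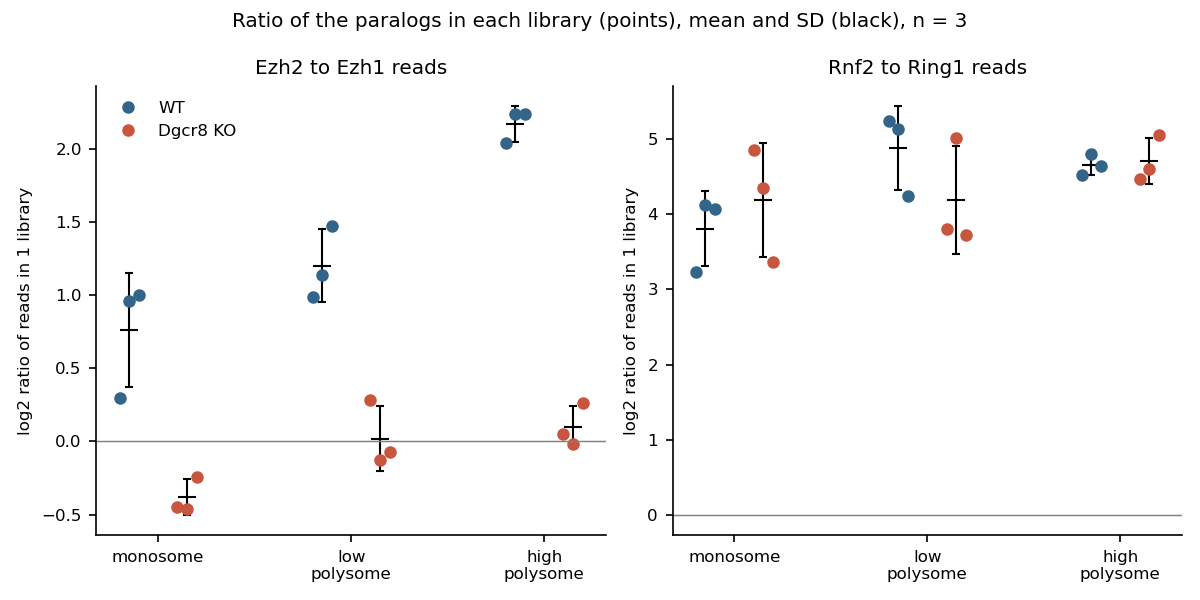
Log2 ratio of Ezh2 to Ezh1 reads (left) and of Rnf2 to Ring1 reads (right) in each library by fraction, for WT (blue) and Dgcr8 KO (red), with mean and SD of 3 in black. The Ezh2 to Ezh1 ratio is lower in every KO library than in any WT library of the same fraction, and the Rnf2 to Ring1 ratios overlap.

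Eed and Suz12 form the core of PRC2 with the methyltransferase: Eed binds the methylated histone and Suz12 holds the complex together. Eed was at 288, 314 and 340 CPM in WT high polysomes and at 227, 208 and 216 CPM in KO. Suz12 was at 194, 268 and 205 CPM in WT and at 135, 167 and 130 CPM in KO. In neither gene did the genotypes overlap there. Eed fell by 0.53 ± 0.12 (SE; adjusted p = 0.000165) and Suz12 fell by 0.62 ± 0.13 (adjusted p = 9.82e-05) on the log2 scale. Both were also lower in KO monosomes. Suz12 went from 141 to 182 CPM in WT to 94.4 to 113 CPM in KO (-0.61, adjusted p = 0.00104). Eed went from 199.6 to 227 CPM to 155 to 183 CPM (-0.37, adjusted p = 0.0211), a change that no longer passed without WT gradient 2 or 3, without KO gradient 1 or 3, with total counts, or with no filter on low counts (adjusted p 0.0546 to 0.173). In low polysomes the changes of -0.27 (Eed, adjusted p = 0.063) and -0.29 (Suz12, adjusted p = 0.0679) did not pass, but that of Eed passed under 7 other settings (adjusted p 0.0238 to 0.0434) and that of Suz12 under 4 (adjusted p 0.0297 to 0.0451).

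No difference in translation level between the genotypes passed for the 2 core subunits. For Eed it was 0.53 in WT (adjusted p = 0.000402) and 0.37 in KO (adjusted p = 0.00825), and the difference of -0.16 had a 95% interval of -0.52 to 0.19. For Suz12 it was 0.45 in WT (adjusted p = 0.00664) and 0.44 in KO (adjusted p = 0.00576), and the difference of -0.01 had an interval of -0.41 to 0.39. With total counts as the scaling, the KO values of 0.12 and 0.19 did not pass, nor did that of Eed without KO gradient 1 (0.28).

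Jarid2 (chr13:44729474-44921643, plus strand), an accessory subunit that binds nucleosomes and helps to recruit PRC2, gave the largest rise in CPM of the 10. Its high polysome level was 792, 882 and 888 CPM in WT and 1858, 2538 and 2443 CPM in KO. In low polysomes it stood at 607, 540.1 and 476 CPM in WT and at 1010.3, 914 and 1056 CPM in KO, and in monosomes at 364, 387 and 325 CPM in WT and at 553, 581 and 529.6 CPM in KO. Every KO library was above every WT library of its fraction. The log2 change grew from 0.63 ± 0.13 (SE; adjusted p = 0.000106) in monosomes to 0.88 ± 0.12 (adjusted p = 2.55e-08) and 1.41 ± 0.11 (adjusted p = 6.18e-14) in low and high polysomes. In both genotypes Jarid2 was called higher in high polysomes than in monosomes, by 1.25 ± 0.12 in WT (adjusted p = 2.59e-11) and 2.03 ± 0.11 in KO (adjusted p = 9.39e-19).

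Mtf2 (chr5:108065674-108109004, plus strand) is the Polycomb-like accessory subunit that takes PRC2 to CpG islands. Unlike Jarid2 it was lower in KO. High polysomes held 351, 352.5 and 410.2 CPM in WT and 187, 204 and 187 CPM in KO, which do not overlap. There Mtf2 fell by 0.95 ± 0.12 (SE) on the log2 scale (adjusted p = 8.68e-09), just under the 2-fold limit, and with total counts the change was -1.17 and was called. In low polysomes it fell by 0.49 ± 0.12 (adjusted p = 0.000496) and in monosomes by 0.42 ± 0.13 (adjusted p = 0.00811). The monosome change was -0.22 without WT gradient 2 (adjusted p = 0.249) and -0.35 with no filter on low counts (adjusted p = 0.0561). Tmed5 shares 395 exonic bases with Mtf2 on the opposite strand, and counting used strand.

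Ring1 and Rnf2 are the alternative E3 ligases of PRC1. Rnf2 (chr1:151458004-151500955, minus strand) did not pass in any comparison of KO with WT. Its high polysome level was 112, 106 and 131.5 CPM in WT and 91.6, 93.8 and 118 CPM in KO, with overlap and a log2 change of -0.21 (95% interval -0.46 to 0.05). The monosome change was 0.01 (-0.32 to 0.35) and that in low polysomes 0.30 (0.01 to 0.59, adjusted p = 0.0745). On the gradient Rnf2 was richer in high polysomes than in monosomes by 1.02 ± 0.16 in WT (adjusted p = 5.77e-07) and 0.80 ± 0.14 in KO (adjusted p = 4.27e-06). The WT value was called, but not without WT gradient 1 (0.89) or with a stricter filter of 10 CPM in at least 3 libraries (0.94).

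Ring1 (chr17:34020792-34024680, minus strand) was read only 3 to 18 times per library, so little can be said of it. Its levels were 4.68, 3.6 and 5.1 CPM in WT high polysomes and 3.97, 3.73 and 3.45 CPM in KO high polysomes. No comparison passed, and the interval of its change of translation level ran from -1.30 to 1.39. The largest value, 1.02 in low polysomes, had an adjusted p of 0.0873, and without KO gradient 2 it was 1.45 and was called (adjusted p = 0.013). The log2 ratio of Rnf2 to Ring1 reads differed between genotypes by 0.38 (monosomes), -0.69 (low polysomes) and 0.04 (high polysomes), with exact permutation p of 0.4, 0.2 and 0.9.

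Pcgf6 (chr19:47033617-47050906, minus strand) defines a variant PRC1 that silences germline genes in ESCs. It was at 122, 111 and 122 CPM in WT monosomes and at 79.5, 72.2 and 58.8 CPM in KO monosomes, and at 106, 91.2 and 101.6 CPM against 72.4, 67.1 and 64.8 CPM in high polysomes. The genotypes did not overlap in these fractions, and Pcgf6 fell by 0.77 ± 0.14 (SE; adjusted p = 2.67e-05) and 0.55 ± 0.13 (adjusted p = 0.000299) on the log2 scale. In low polysomes the genotypes overlapped, at 57.1, 56.4 and 63.2 CPM in WT and 52.6, 63.1 and 58.6 CPM in KO (-0.02, 95% interval -0.29 to 0.25). In WT, low polysomes held less of it than the fractions on both sides, a dip of -1.0 ± 0.08 (SD, n = 3 gradients) against monosomes on the log2 scale. In KO that step was -0.26 ± 0.30.

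Cbx7 (chr15:79915807-79971119, minus strand) is the chromodomain protein through which canonical PRC1 reads the PRC2 mark in ESCs. It was the member most depleted from polysomes. WT monosomes held 400.5, 500.1 and 458 CPM and KO monosomes 349, 432 and 293 CPM, which overlap. In low polysomes WT stood at 276, 286 and 245 CPM and KO at 117, 167 and 114.5 CPM, and in high polysomes WT stood at 133, 149.9 and 156 CPM and KO at 72.4, 61.2 and 52.2 CPM. In both polysome fractions every KO library was below every WT library. Cbx7 fell by 0.35 ± 0.14 (SE; adjusted p = 0.0428) in monosomes, by 1.04 ± 0.14 (adjusted p = 5.11e-08) in low polysomes and by 1.26 ± 0.15 (adjusted p = 3.72e-09) in high polysomes. The monosome change did not pass in edgeR or DESeq2, with total counts, with no filter on low counts, or without WT gradient 2 or 3 or KO gradient 1 or 3 (adjusted p 0.0538 to 0.361). The low polysome change was under 2-fold without KO gradient 3 (-0.94) and without KO gradient 1 (-0.97), and was -1.21 without KO gradient 2. The KO low polysome library of gradient 1 held the most reads of fibroblast collagens, and that of gradient 3 held 0 or 1 of each. A part of these reads in the Cbx7 change was not tested.

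**Figure D3:**
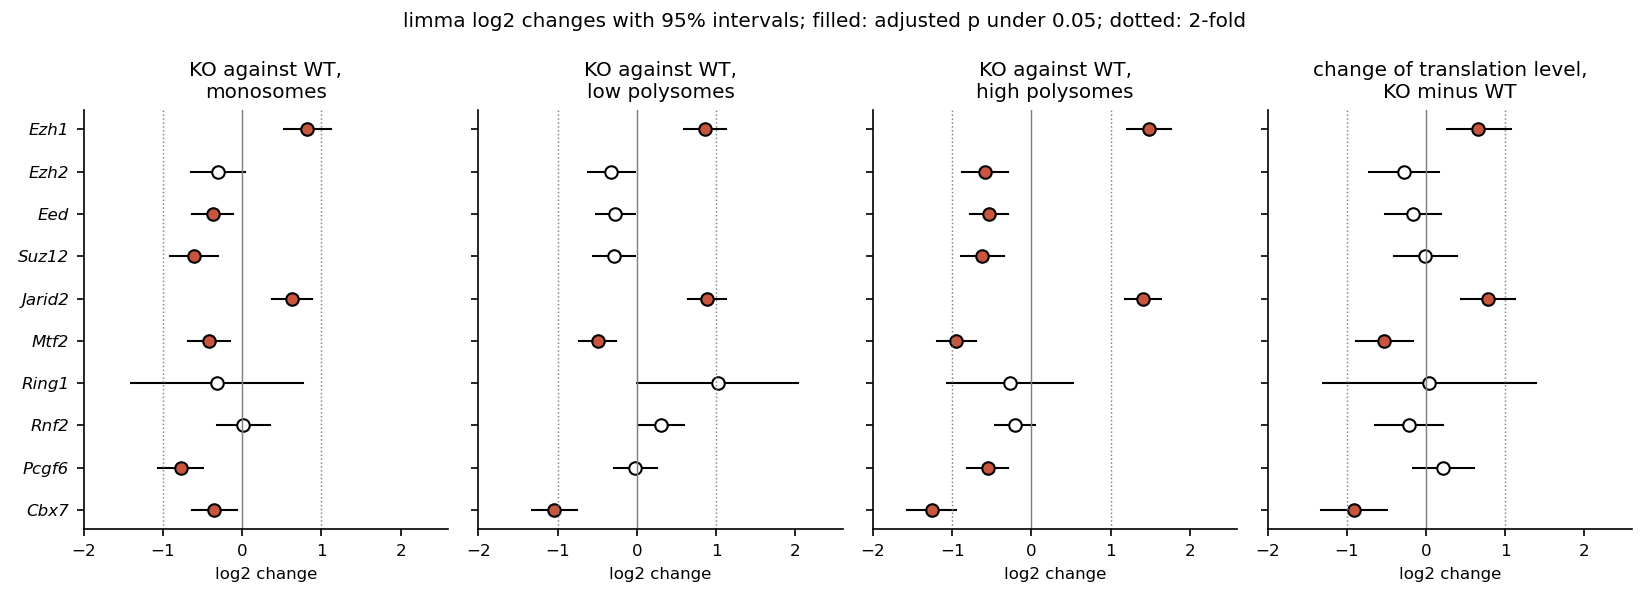
Log2 change of each member (limma, points with 95% intervals) in Dgcr8 KO against WT within monosomes, low polysomes and high polysomes, and the KO minus WT change of translation level; filled points passed at an adjusted p under 0.05 and dotted lines mark 2-fold. Ezh1 and Jarid2 lie to the right in all 4 panels and Mtf2 and Cbx7 to the left, and the interval of Ring1 is the widest in each.

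At an adjusted p under 0.05, counts of members were smaller outside high polysomes. In low polysomes 2 members passed higher (Ezh1, Jarid2) and 2 lower (Mtf2, Cbx7), against 26.1% and 26.2% of all genes. The number lower was 5 with DESeq2 size factors, with the stricter filter and with a replicate block, and 4 without WT gradient 1, while the number higher was 2 in each of these. At an unadjusted p under 0.05 in limma, 4 members were higher and 5 lower in low polysomes. Of the 12851 genes, 3660 were higher and 3690 lower by that measure. In high polysomes the unadjusted counts of members were 2 and 6, so the smaller count in low polysomes depends on the adjustment. Only Cbx7 was called in low polysomes, against 11.4% of genes called higher and 13.6% called lower. In monosomes 2 passed higher (Ezh1, Jarid2) and 5 lower (Eed, Suz12, Mtf2, Pcgf6, Cbx7), against 17.5% and 19.9% of all genes. No member was called there, against 8.43% and 9.63% of genes. At an unadjusted p under 0.05 the same counts of 2 and 5 were reached in limma, while at an adjusted p under 0.05 edgeR and DESeq2 each gave 2 higher and 4 lower and called none.

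Within a genotype, the translation level sets high polysomes against monosomes. In WT 6 members passed higher (Ezh2, Eed, Suz12, Jarid2, Mtf2, Rnf2) and 2 lower (Ezh1, Cbx7), against 26.0% and 28.0% of all genes. Jarid2, Rnf2 and Cbx7 were called, against 10.7% of genes called higher and 19.3% called lower. In KO 5 passed higher (Ezh2, Eed, Suz12, Jarid2, Rnf2) and 1 lower (Cbx7), against 32.2% and 35.5% of all genes. Jarid2 and Cbx7 were called, against 17.5% and 25.5%. The 2 extremes were Jarid2 and Cbx7 in both genotypes. Cbx7 changed by -1.63 ± 0.14 (SE; adjusted p = 1.24e-12) in WT and -2.53 ± 0.15 (adjusted p = 3.85e-18) in KO. Its log2 ratio per gradient was -1.59, -1.73 and -1.55 in WT and -2.26, -2.80 and -2.47 in KO, and for Jarid2 the ratios were 1.12, 1.19 and 1.45 in WT and 1.75, 2.13 and 2.20 in KO. The genotypes did not overlap for either gene.

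The step of the gradient at which the genotypes parted differed by gene. For Cbx7 it was the step from monosomes to low polysomes, -0.75 ± 0.19 (SD, n = 3) in WT and -1.43 ± 0.12 in KO on the log2 scale, and the step from low to high polysomes was -0.88 ± 0.20 and -1.08 ± 0.37. For Ezh1 the first step was -0.37 ± 0.25 and -0.34 ± 0.19, and the second was -0.25 ± 0.09 in WT and 0.38 ± 0.12 in KO. Jarid2 had a first step of 0.59 ± 0.13 and 0.84 ± 0.17 and a second of 0.66 ± 0.26 and 1.19 ± 0.30. These steps are descriptions and were not tested.

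The change of translation level between genotypes was tested as the interaction term. Of the 10 members 2 passed higher in KO and 2 lower, against 13% and 15.2% of all genes, so the shares were near the background. No member was called in limma, edgeR or DESeq2, against 6.29% of genes called higher and 8.81% called lower. At an unadjusted p under 0.05 the counts were also 2 and 2. The 4 that passed were Jarid2 (0.78 ± 0.17, SE; adjusted p = 0.000466), Ezh1 (0.66 ± 0.20; adjusted p = 0.0101), Mtf2 (-0.53 ± 0.17; adjusted p = 0.0206) and Cbx7 (-0.91 ± 0.21; adjusted p = 0.00081). Ezh1 did not pass without WT gradient 1 (0.49, adjusted p = 0.133) or with total counts (0.34, adjusted p = 0.213). Mtf2 did not pass without WT gradient 1 (adjusted p = 0.0925) or WT gradient 3 (adjusted p = 0.134). Cbx7 was called without KO gradient 1 (-1.03) and with total counts (-1.24).

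All these values are relative to TMM, and the scaling matters. With total counts the median of all genes moved from 0.007 to -0.322 for the change of translation level, and from -0.082 to -0.306 for KO against WT in high polysomes. On that scaling 1 member passed higher (Jarid2, 0.45) and 5 lower (Ezh2, Eed, Mtf2, Rnf2, Cbx7) for the change of translation level.

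Across all genes the change of translation level went with coding length. The median over the 1177 genes of the shortest length decile was -0.942 on the log2 scale, and over the 1177 of the longest it was 0.619. Jarid2, with 3702 nt, lay in the longest decile at the 60.6th percentile of its genes. Cbx7, with 753 nt the shortest of the 10, lay in a decile whose median was -0.34, at the 18.5th percentile. Mtf2 (1779 nt) lay at the 13.8th percentile of a decile with a median of 0.21. Ezh1 and Ezh2, at 2250 and 2238 nt, share a decile with a median of 0.33, where Ezh1 was at the 69th and Ezh2 at the 17.7th percentile. With the length trend removed, Jarid2 (0.22, adjusted p = 0.408), Ezh1 (0.33, adjusted p = 0.288) and Cbx7 (-0.45, adjusted p = 0.137) no longer passed, whereas Mtf2 (-0.73, adjusted p = 0.00294) and Ezh2 (-0.61, adjusted p = 0.0495) did. In high polysomes the changes of Jarid2 (0.85) and Cbx7 (-0.74) were under 2-fold once the trend was removed, and Ezh1 (1.16) was still called, while Mtf2 (-1.13) became called.

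**Figure D4:**
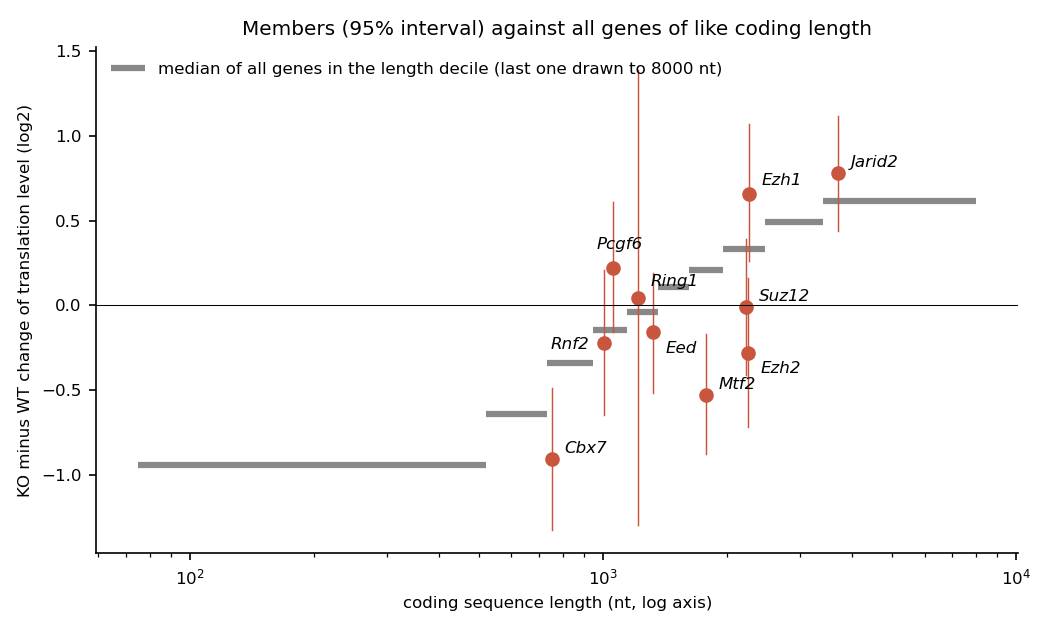
KO minus WT change of translation level (log2) of the 10 members, with 95% intervals, against coding sequence length (nt, log axis); grey bars are the medians of all protein-coding genes tested in 10 deciles of length. The medians climb from -0.942 to 0.619, with Jarid2 and Cbx7 near the 2 ends of the members. Ezh2, Mtf2, Cbx7, Suz12, Eed and Rnf2 lie below the bar of their decile.

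Among the remaining PRC2 subunits, 3 of 7 tested rose in high polysomes, Phf1 and Lcor among them. Another 3 fell, Phf19 among them, and the list median was 0.28. In the counts of this list and those below, a gene rose or fell at an adjusted p under 0.05. By that measure 29.1% of all genes rose and 31.6% fell in high polysomes. For the change of translation level 13% rose and 15.2% fell. Lcor, listed here as the gene of a PRC2 cofactor, went from 12.5, 15.1 and 9.24 CPM in WT to 43.0, 46.9 and 37.5 CPM in KO (1.80 ± 0.21, SE; adjusted p = 1.87e-09). Reads were counted per gene, so which transcript of Lcor rose cannot be told. Phf19, a paralog of Mtf2, was read 7, 7 and 11 times in WT high polysomes and 2, 4 and 2 times in KO. It passed the filter on low counts mainly through the WT monosome libraries, at 5.36, 7.74 and 5.3 CPM. Such a choice favours genes that are higher in WT, so Phf19 is no support for the count. For the change of translation level 3 rose and 1 fell, among them Lcor (1.46 ± 0.30, adjusted p = 0.000252) and Phf1, another Mtf2 paralog (1.43 ± 0.44, adjusted p = 0.0129). Phf1 stood at 2.73, 6.85 and 3.50 CPM in WT high polysomes and at 12.9, 9.32 and 8.96 CPM in KO.

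Among 10 other canonical PRC1 genes tested, 4 rose and 2 fell in high polysomes, with a list median of -0.02. For the change of translation level 2 rose and 1 fell, led by Phc3, a polyhomeotic subunit, which went from 14.4, 22 and 21.3 CPM in WT to 49.3, 72.1 and 74.7 CPM in KO high polysomes and changed its translation level by 1.5 ± 0.35 (adjusted p = 0.00114). Of 18 variant PRC1 genes, 7 rose and 8 fell in high polysomes (median 0.06), and 5 rose and 5 fell in translation level (median -0.33). Rybp, which stands in for Cbx proteins in variant PRC1, went from 16.8, 23.8 and 22 CPM in WT to 13.2, 16.2 and 13.3 CPM in KO high polysomes, and its translation level fell by 1.53 ± 0.35 (adjusted p = 0.000859). In WT Rbbp4, a histone chaperone of PRC2, was higher in high polysomes than in monosomes by 1.26, L3mbtl2 by 1.07 and Cdkn2a by 1.54. Phf1 was lower (-2.66). Hoxd8, also called lower, held 8, 12 and 2 reads in WT monosomes and 3, 2 and 7 in WT high polysomes. It passed the filter on low counts through monosome and low polysome libraries alone. Such a choice favours lower values in high polysomes, so Hoxd8 is given with no test in either genotype. Hoxa5, also called lower, held 5, 2 and 1 reads in WT monosomes and 2, 1 and 0 in WT high polysomes. In KO Rbbp4, Bcor and Mga were higher (1.55, 1.51 and 1.45) and Yaf2 lower (-1.98). Hoxd8, again called lower, held 10, 20 and 30 reads in KO monosomes and 8, 6 and 7 in KO high polysomes. Hoxd13, also called lower, held 0, 4 and 14 reads in KO monosomes and 2, 0 and 1 in KO high polysomes.

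Of 7 enzymes that counteract Polycomb, 4 rose and 2 fell in high polysomes, and the median was 0.61, also with Asxl3 at its bound. Asxl3, a cofactor of the H2A deubiquitinase, was read 1, 2 and 0 times in WT high polysomes and 14, 15 and 15 times in KO, at least 3.97-fold higher against 3 reads per library. In low polysomes it was read 2, 8 and 0 times in WT and 21, 20 and 17 times in KO. It is among the 4 that rose, and it passed the filter on low counts through the KO libraries alone, so it had to differ. Uty, a Y-linked relative of the H3 lysine 27 demethylases, fell by 1.27 in low polysomes (adjusted p = 0.0103) and by 1.57 in high polysomes (adjusted p = 0.00996). These values rest on few reads. Uty was read 12, 24 and 31 times in WT low polysomes and 4, 12 and 14 times in KO. In high polysomes the reads were 8, 19 and 13 in WT and 3, 3 and 11 in KO. For the change of translation level 3 of the 7 rose and 1 fell.

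Genes listed as textbook Polycomb targets in ESCs, most of them developmental regulators, were mostly too low to test. Of these, 11 of 29 passed the filter on low counts. A gene that passed only through its higher group had to differ, so their counts are no measure of the list. Not every listed gene was silent in WT. In WT high polysomes Cdkn2a was at 137 to 168 CPM and Olig2 at 49.0 to 57.3 CPM. In monosomes 5 of the 11 rose and 1 fell, against 17.5% and 19.9% of all genes. Hoxa9 was read 9, 5 and 7 times in WT monosomes and 83, 170 and 129 times in KO, a rise of 3.39 ± 0.36 (SE; adjusted p = 7.84e-10). It rose by 2.32 in low polysomes (adjusted p = 4.14e-09) and by 1.76 in high polysomes (adjusted p = 1.95e-06), and its translation level fell by 1.63 (adjusted p = 0.00717). Hoxd13 went the other way, with 10, 13 and 10 reads in WT high polysomes and 2, 0 and 1 in KO, at least 4.5-fold lower against 3 reads per library. In low polysomes it was read 24, 35 and 34 times in WT and 2, 0 and 6 times in KO, and in monosomes the genotypes overlapped, at 18, 11 and 9 reads in WT and 0, 4 and 14 in KO. Hoxa5 was read 2, 1 and 0 times in WT high polysomes and 3, 9 and 14 times in KO, at least 2.18-fold higher. In monosomes it was read 5, 2 and 1 times in WT and 12, 24 and 22 times in KO, and in low polysomes 8, 2 and 9 times in WT and 21, 27 and 24 times in KO. Hoxd13 passed the filter through WT and Hoxa5 through KO, so their values are given with no test. Lhx2, a LIM homeobox gene, rose by 1.58 in monosomes (adjusted p = 0.00438) and its translation level fell by 2.16 (adjusted p = 0.00536).

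**Figure D5:**
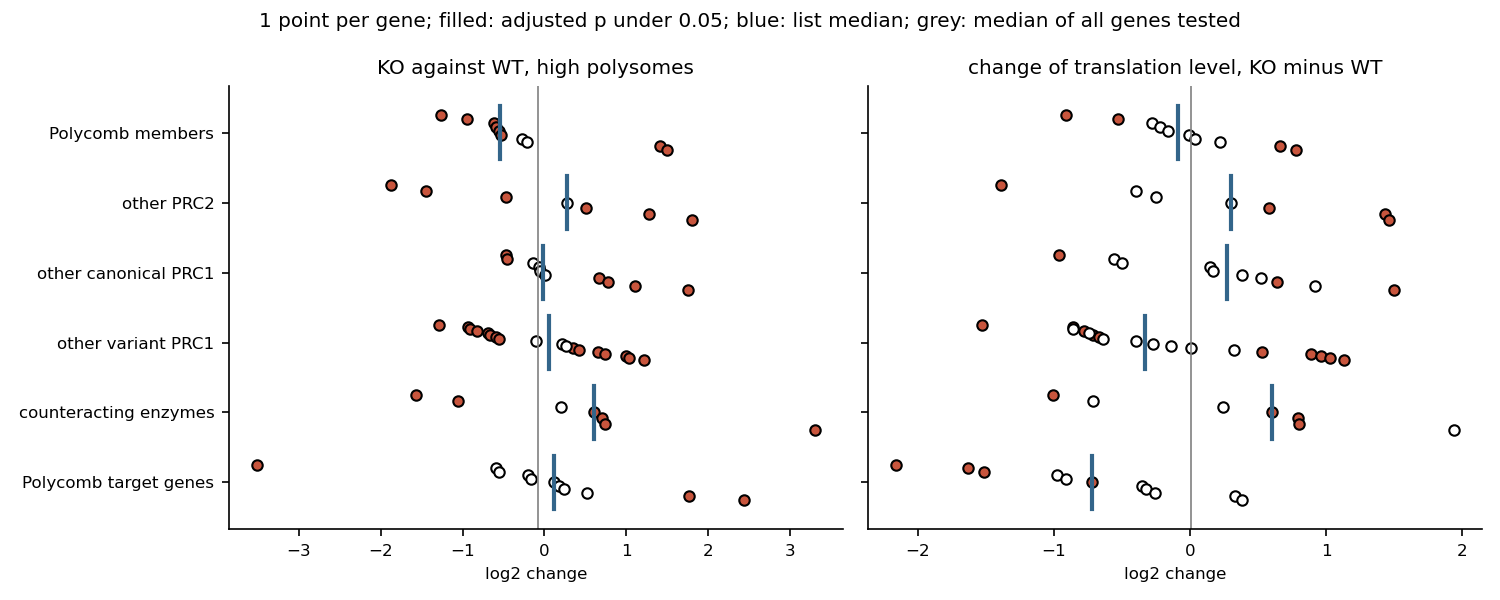
Log2 change of the tested genes of 6 Polycomb lists in high polysomes (left) and of their translation level (right), Dgcr8 KO against WT; each point is 1 gene, filled where the adjusted p was under 0.05, blue marks the list median and the grey line the median of all genes tested. Each list spreads to both sides of the grey line, and the member list has a median of -0.54 on the left and -0.09 on the right.

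Over the 18 libraries the genes whose log2 CPM ran most closely with Ezh2 were Ddx1 (Pearson r = 0.929), Fxr1 (r = 0.924) and Wdr61 (r = 0.921) among 11765 protein-coding genes. Of the members, Eed ranked 57th (r = 0.855), Rnf2 554th (r = 0.732) and Suz12 1116th (r = 0.634), and Ezh1 stood near the far end (r = -0.554). The genes closest to Rnf2 were Rbpj (r = 0.960), U2af2 (r = 0.958) and Ppp1cb (r = 0.953). These are descriptions over libraries that share genotype, fraction and gradient.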

How the data were processed

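RNA of 18 gradient fractions was counted in 6 groups by genotype and fraction, as the labels give them. Per the file headers and the labels, the authors trimmed reads with cutadapt 1.14, aligned them to mm10 with STAR 2.5.3a, kept unique alignments and made stranded counts over GENCODE M14 genes with featureCounts 1.5.3. The deposited values are raw counts of 3′ end reads with no molecular identifiers stated, so precision statements cover counting error and the spread between libraries. The table also held 92 spike-in entries, which were left out. No column belonged to other samples.

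The 12851 genes that reached 3 CPM in 3 or more libraries were fitted with limma 3.58.1 (voom weights, TMM factors from edgeR 4.0.16, R 4.3.3) as 6 group means without a block, after the study's own interaction model. P-values were two-sided and Benjamini-Hochberg adjusted over all genes tested. Within-library ratios used counts plus 0.5. Gene models, coding lengths and sites are from GENCODE M21, where 51274 of the 51467 genes matched. No 2 libraries of a group agreed within sampling noise (chi-square per gene 1.92 to 7.48). Libraries of 1 genotype that share a number were taken as fractions of 1 gradient, which the labels do not state. Their deviations correlated at 0.032 to 0.135 over 18 pairs. The same number in WT and KO is only a number (0 to 0.102 over 9 pairs).

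Named were all members, Dgcr8, the 3 most changed called genes per direction and comparison from the other Polycomb lists, and the 3 closest in pattern to Ezh2 and Rnf2. Members and lists were chosen with earlier results of these data known. Alternatives were DESeq2 size factors, total counts, edgeR and DESeq2 1.42.0 tests, other filters, the compared libraries alone, a replicate block, each gradient left out, the adjusted p alone and removal of the coding length trend.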

Additional observations from a re-analysis of the deposited data

Results flagged for a closer look

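The translation level, high polysome against monosome, differed between WT and Dgcr8 KO by the interaction test for 4 members. The difference, KO minus WT on the log2 scale, was 0.78 for Jarid2, 0.66 for Ezh1, -0.53 for Mtf2 and -0.91 for Cbx7. The per-gradient ratios of the genotypes did not overlap for any of the 4, which adds no support, since the test used the same libraries. Those of Pcgf6 did not overlap either, and it did not pass (0.22, adjusted p = 0.415). With the length trend removed, Jarid2, Ezh1 and Cbx7 no longer passed (adjusted p 0.408, 0.288 and 0.137). Without WT gradient 1, Ezh1 and Mtf2 did not pass (adjusted p 0.133 and 0.0925).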

How the results depend on the processing

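Over the 10 members, 6 comparisons and up to 16 alternatives, 843 values kept their direction and their side of the call, 33 became called, 6 lost the call and 32 changed sign. Those that changed sign lay between -0.290 and 0.062, and most of those that became called did so with the adjusted p alone. With the adjusted p alone and no limit on the fold, the members counted were 4 for the change of translation level, 7 in monosomes, 4 in low polysomes, 8 in high polysomes, 8 within WT and 6 within KO. With total counts 1 member was called for the change of translation level (Cbx7), where the range over gradients left out was 0 to 1 (without KO gradient 1). In low polysomes that range was 0 to 2, with 0 without KO gradient 1 or 3 and 2 without KO gradient 2. The cause of these changes was not tested.

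For the change of translation level, Suz12 was 0.001 with DESeq2 size factors and -0.096 to 0.062 with a gradient left out. Ring1 was -0.290 with total counts, -0.114 in edgeR, -0.091 in DESeq2, -0.014 with the compared libraries alone and -0.290 to 0.555 with a gradient left out, and Pcgf6 was -0.107 with total counts. In monosomes Rnf2 was 0.000 in edgeR, -0.001 in DESeq2, -0.008 with the stricter filter and -0.139 to 0.131 with a gradient left out. In high polysomes Rnf2 was 0.052 with the length trend removed. In low polysomes Pcgf6 was -0.081 to 0.045 with a gradient left out. Within KO, Ezh1 was -0.213 with total counts, -0.076 with the stricter filter and -0.022 to 0.108 with a gradient left out, Ring1 was -0.052 with total counts and -0.136 to 0.709 with a gradient left out, and Pcgf6 was 0.021 with no filter and -0.116 to 0.017 with a gradient left out. The Rnf2 to Ring1 difference in high polysomes was -0.129 to 0.163 with a library left out. None of these values passed the test in the fit reported. Depth limits Ring1 most, at 3 to 18 reads per library.

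With each gradient as a replicate block, the change of translation level of Ring1 was -0.095, and with the replicate number as a block the monosome change of Rnf2 was -0.005. The replicate block changed no member's call. By the adjusted p alone it added Ezh2, Eed and Suz12 in low polysomes (adjusted p 0.0412, 0.0424 and 0.0451), where WT and KO share only a number, and the count went from 4 to 7.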
